A study of Mus musculus with 6 samples.

Results

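The urea cycle and the enzymes that break down amino acids were followed in mouse liver as a set of 54 genes, chosen by name and taken from the array probes annotated with those names. The 54 genes, of 31896 gene names on the array, are read by 69 of its 39429 probes that are not controls. They fall into 10 pathway groups: the urea cycle (6 genes), glutamate, aspartate and alanine (6), tyrosine (5), tryptophan (4), histidine (4), serine and glycine (6), proline (3), the branched-chain amino acids (9), lysine (3), and methionine with one-carbon metabolism (8). All 54 were measured, and the probe used for each was well above background on all 6 arrays.

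The animals were male C57BL/6 mice, an inbred laboratory strain, 5 weeks old at the start and divided at random between a diet with moderately restricted carbohydrate (3 mice) and a control diet (3 mice). Mice of both diets received, by hydrodynamic injection into the tail vein, a transposon vector carrying HrasG12V, a hairpin against p53 (shp53) and GFP4, which induces liver tumours. RNA came from liver outside the tumours of each animal, was labelled with Cy3 and was hybridised to 1 Agilent array per mouse. The sample labels state 1 week on the diets before the injection and killing after 5 weeks of feeding, and the series text states 2 and 4 weeks; the sample titles call both diets supplemented without naming a supplement. The series title describes the restricted diet as combined with several phytochemicals, which the sample labels do not mention, so carbohydrate restriction and such a supplement cannot be told apart in any diet difference here. Controls therefore carried the same vector, and no mouse without the vector is included. The promoter that drives the vector and the share of liver cells reached are not given in the sources used here.

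Amino acids that are not built into protein lose their nitrogen, mainly by transfer to glutamate, and the liver packs the freed ammonia with aspartate nitrogen into urea for excretion. The remaining carbon skeletons enter energy metabolism, glucose production or ketone bodies. Liver is the main site of breakdown for most essential amino acids, but the first transamination of the branched-chain amino acids takes place largely in other tissues. Several of these enzymes, Tat, Sds and the urea cycle enzymes among them, are known to respond to protein intake, glucagon and glucocorticoids.

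The sequences that measured 4 strongly differing members are shown because each crosses an exon junction in the genome and so matches spliced message; 7 members have such a probe. They are 60-base probes given 5′ to 3′ as deposited, with mm9 coordinates from the files. The Otc probe, the second of that gene, spans chrX:9853843-9877490, the Hpd probe chr5:123622237-123624360, the Tdo2 probe chr3:81767918-81770928 and the Gnmt probe chr17:46862894-46863042.
Otc: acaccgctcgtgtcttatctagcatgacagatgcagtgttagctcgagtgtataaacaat
Hpd: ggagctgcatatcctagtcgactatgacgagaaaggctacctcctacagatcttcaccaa
Tdo2: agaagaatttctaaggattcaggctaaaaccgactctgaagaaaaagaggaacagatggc
Gnmt: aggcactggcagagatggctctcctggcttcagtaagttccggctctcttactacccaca

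Among the 54 members, 39 were higher and 0 lower on the restricted diet at a Benjamini-Hochberg adjusted p under 0.05 in limma, and 15 were not called. Over all 19616 features tested, 27.5% were called, 14.6% as higher and 12.8% as lower. At an unadjusted p under 0.05, 44 members were higher and 0 lower. The median member difference was 1.13 on the log2 scale (restricted minus control), against 0.12 for all features, so members stood 1.01 above that general shift. Single members ranged from -0.01 for Sdsl to 2.15 for Gls2, and 32 of those called differed by at least 2-fold. For 42 members every restricted mouse lay above every control mouse, and for 0 members below. Over all features the diets did not overlap for 44.8%, with the restricted mice above for 26.1% and below for 18.8%.

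The member genes are bright on these arrays: 39 of the 54 lie among the brightest 1962 features by mean signal. Of the 1316 features at or above the members' median signal, 27 of them members, 26.2% were called higher and 1.82% lower, with a median difference of 0.30. Levels are log2 signals after subtraction of each array's 75th percentile, called relative log2 signals here. Their median over the 54 members was 5.56, 5.42 and 5.33 in restricted mice 1, 2 and 3, against 4.27, 4.17 and 4.35 in control mice 1, 2 and 3. All restricted mice lay above all control mice in this median. In whole liver tissue, fewer cells of a type and less RNA per cell cannot be told apart.

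**Figure D1:**
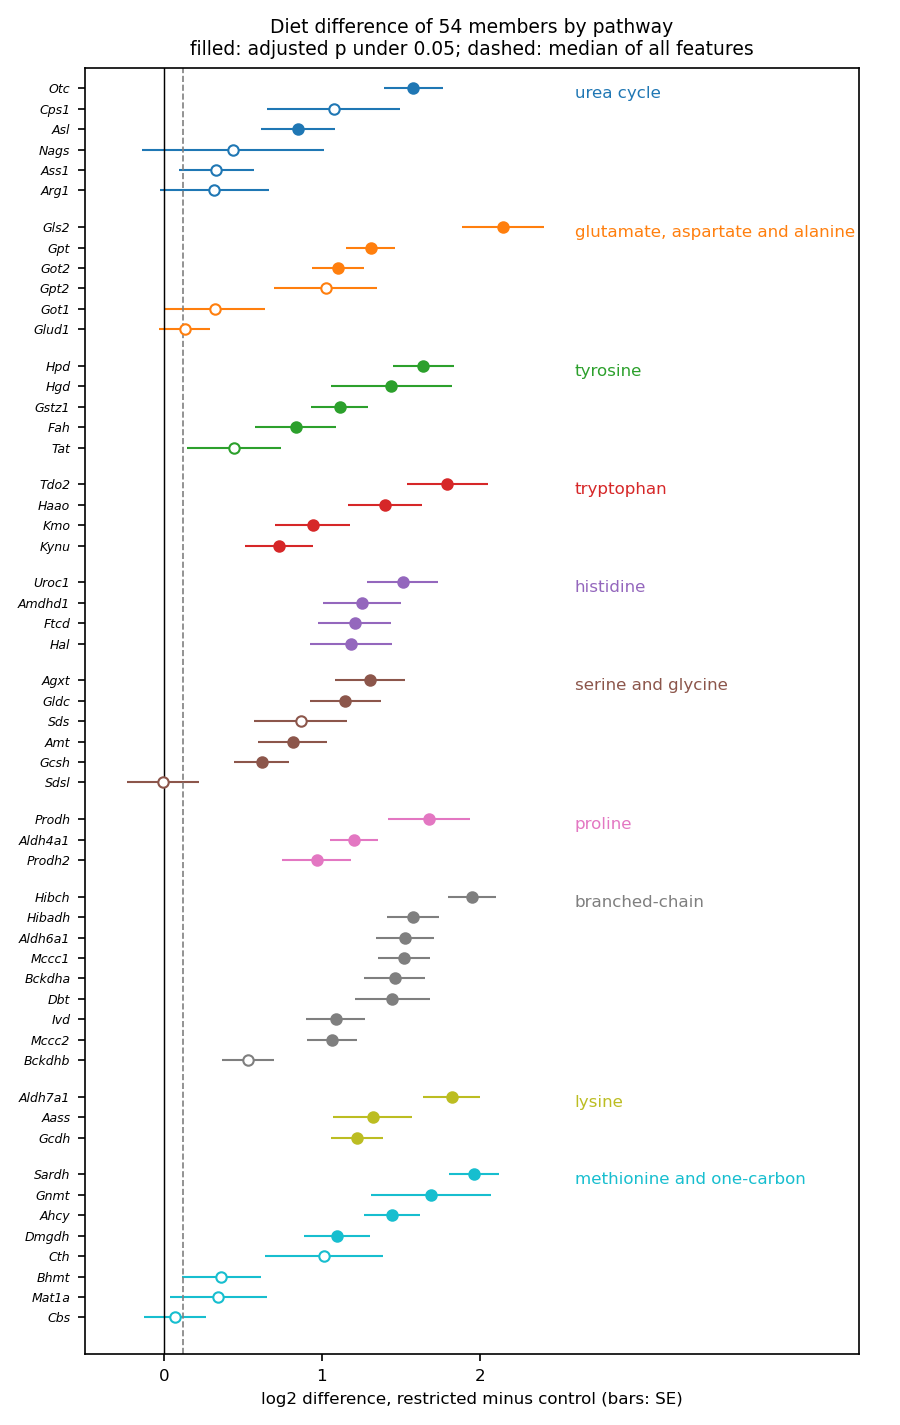
Log2 difference (restricted minus control, x axis) of each of the 54 members, with SE bars, grouped by pathway from top to bottom; filled points passed an adjusted p of 0.05 and the dashed line marks the median of all features at 0.12. Filled points fill the tryptophan, histidine, proline and lysine groups, while the urea cycle holds 2 of 6.

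**Figure D2:**
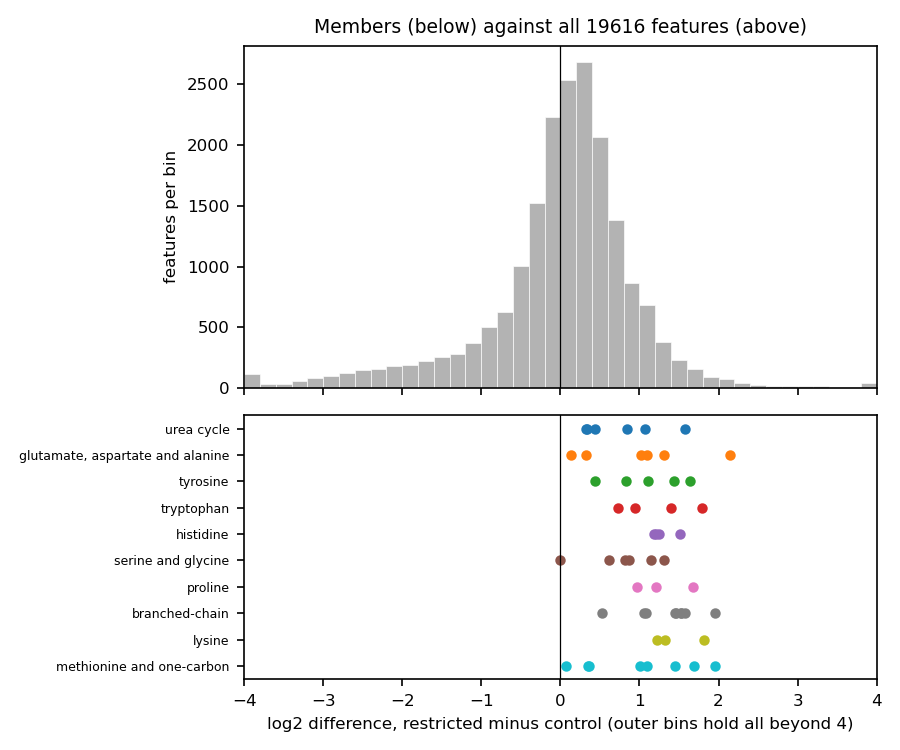
Distribution of the log2 difference (restricted minus control, x axis) over all 19616 features in the upper panel, as features per bin, and the 54 members by pathway in the lower panel. Members lie between -0.01 and 2.15, to the right of the long left tail of the upper panel.

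The arrays lay on 2 slides, which were scanned separately. Slide 1 held all 3 control mice and restricted mouse 1, and slide 2 held restricted mice 2 and 3. With slide as a block, the estimate equals restricted mouse 1 against the controls on slide 1, and slide 2 alone gives no comparison. That block fit called 30 members higher and 0 lower, 27 of them shared with the fit without slide, and 15.4% of all features. Slide 1 alone called 22 members higher and 0 lower, against 11.5% of all features. The member median was 1.31 in both. For each of the 39 called members, all 3 restricted mice lay above all 3 control mice. The mean of restricted mice 2 and 3 on slide 2 was therefore bound to lie above the control mean. That comparison also crosses slides, so it is no separate check. Values with slide as a block are given below with each pathway.

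The urea cycle turns ammonia into urea in 5 steps, and its 6 genes divided: Otc and Asl rose on the restricted diet, and the other 4 were not called. Their median difference was 0.64, and 1.28 with slide as a block. Otc, the mitochondrial enzyme that joins carbamoyl phosphate to ornithine, had relative log2 signals of 5.46, 5.16 and 5.06 in restricted mice 1, 2 and 3, against 3.72, 3.47 and 3.76 in control mice 1, 2 and 3. The diets did not overlap, and the 3 restricted mice spanned 0.41 among themselves. Its difference was 1.58 ± 0.19 (SE, n = 3 per diet), or 2.98-fold (adjusted p = 0.00146; with slide as a block 1.81, adjusted p = 0.00688). The second Otc probe, printed above, differed by 1.96 ± 0.37 (adjusted p = 0.00906 over all probes).

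Asl, which splits argininosuccinate into arginine and fumarate, had 5.59, 5.06 and 4.84 in restricted mice, against 4.48, 4.16 and 4.31 in control mice, in the order of mouse number used throughout. The groups did not overlap, but the lowest restricted mouse was 0.36 above the highest control mouse. The difference was 0.85 ± 0.23, or 1.80-fold (adjusted p = 0.0358), and 1.28 with slide as a block (adjusted p = 0.0240; 0.0526 on slide 1 alone). Without restricted mouse 1 it was 0.63 (adjusted p = 0.0771), and the call was kept in only 1 of the 6 fits that left out a mouse, the one without restricted mouse 3.

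Cps1, which makes the carbamoyl phosphate that enters the cycle, had 4.90, 4.50 and 3.43 in restricted mice, against 3.76, 2.95 and 2.89 in control mice. Restricted mice 1 and 2 were above all controls and restricted mouse 3 was below control mouse 1. The difference of 1.07 ± 0.42 was not called (adjusted p = 0.102; with slide as a block 1.70, adjusted p = 0.0831). Without restricted mouse 3 it was 1.49 and was called (adjusted p = 0.0254). Nags makes N-acetylglutamate, the activator that Cps1 needs. It had 2.54, 1.70 and 0.85 in restricted mice, against 2.37, 0.69 and 0.71 in control mice. Mouse 1 of each diet was its highest, and the SD within each diet (0.84 restricted, 0.96 control) exceeded the difference of 0.44 ± 0.58 (adjusted p = 0.609).

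Arg1, the arginase that releases urea, had 6.71, 6.14 and 5.44 in restricted mice, against 6.10, 5.43 and 5.80 in control mice. The diets overlapped, with a difference of 0.32 ± 0.35 (adjusted p = 0.531). Ass1, which condenses citrulline with aspartate, was saturated on all 6 arrays at its brightest probe, so no fold is given; that probe read 7.31, 7.17 and 7.71 in restricted mice and 6.76, 7.03 and 7.40 in control mice. Its second probe was saturated in all 3 restricted mice and in 0 of 3 control mice, and read 7.49, 7.28 and 7.86 in restricted mice, against 6.76, 6.52 and 6.68 in control mice. By that probe Ass1 was at least 1.85-fold higher on the restricted diet (adjusted p = 0.0185 over all probes).

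**Figure D3:**
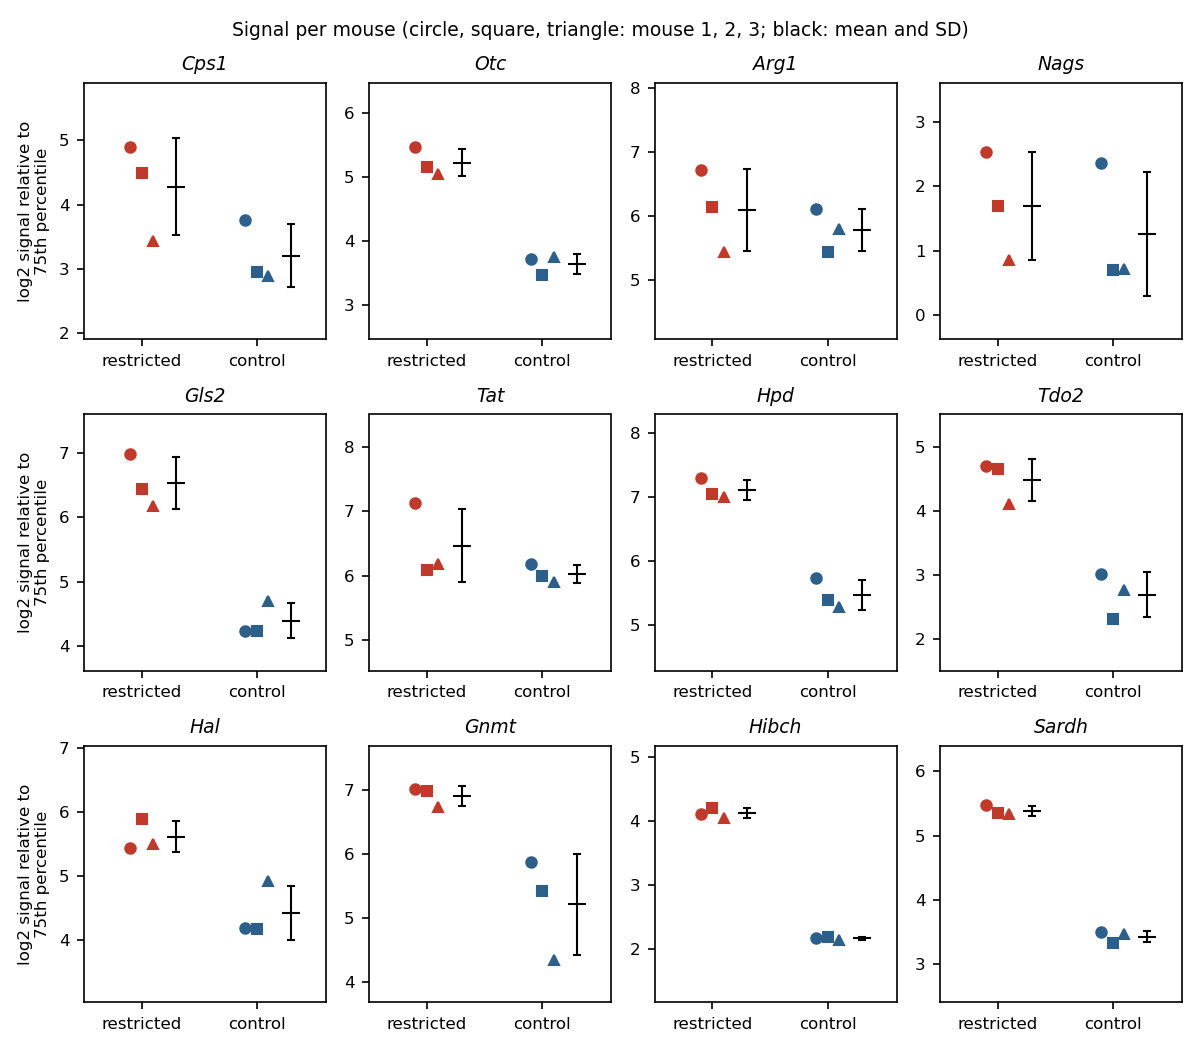
Relative log2 signal (signal against the 75th percentile of its array; y axis, the same span in each panel) for 12 members, with the restricted diet left of control; circles, squares and triangles are mice 1, 2 and 3, and black marks show the mean and SD of 3 mice. Hibch, Sardh, Gls2 and Hpd separate the diets clearly, whereas Arg1, Nags and Tat overlap.

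Of the 6 genes that move nitrogen through glutamate, aspartate and alanine, 3 rose: Gls2, Gpt and Got2. The group median was 1.06, and 1.24 with slide as a block. Gls2, the liver-type glutaminase that releases ammonia from glutamine in mitochondria (probe at chr10:127646830-127646889, mm9), had 6.98, 6.44 and 6.18 in restricted mice, against 4.23, 4.23 and 4.70 in control mice. It had the largest difference of the 54, at 2.15 ± 0.26, or 4.43-fold (adjusted p = 0.00158; with slide as a block 2.59, adjusted p = 0.00411). Its lowest restricted value lay 1.48 above its highest control value.

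Gpt, the cytosolic alanine aminotransferase, had 5.78, 5.91 and 5.81 in restricted mice, against 4.47, 4.51 and 4.59 in control mice, with little spread in either diet. The difference was 1.31 ± 0.15 (adjusted p = 0.00143). Got2, the mitochondrial aspartate aminotransferase, differed by 1.10 ± 0.17 (adjusted p = 0.00369), while its cytosolic counterpart Got1 differed by 0.32 ± 0.32 with overlapping diets (adjusted p = 0.484). Gpt2, the mitochondrial alanine aminotransferase, did not overlap between the diets but missed the threshold at 1.02 ± 0.33 (adjusted p = 0.0559). It was called without restricted mouse 3, at 1.24 (adjusted p = 0.0498), and with slide as a block, at 1.65 (adjusted p = 0.0248).

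Glud1, glutamate dehydrogenase, which frees ammonia from glutamate, had 6.63, 6.57 and 6.43 in restricted mice, against 6.37, 6.36 and 6.51 in control mice. The diets overlapped and its 2 probes had opposite signs, 0.13 ± 0.16 (adjusted p = 0.579) and -0.12 ± 0.18 (adjusted p = 0.657 over all probes). Neither probe gave a call.

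In tyrosine breakdown, 4 of 5 enzymes rose, all of them after the opening transamination (group median 1.11, and 1.14 with slide as a block). Tat, the aminotransferase that opens the pathway, had 7.13, 6.09 and 6.18 in restricted mice, against 6.18, 5.99 and 5.90 in control mice. Only restricted mouse 1 was clearly above the controls, and the difference was 0.44 ± 0.30 (adjusted p = 0.311), or 1.10 with slide as a block (adjusted p = 0.0331), which rests on that mouse. Hpd, the dioxygenase of the next step, had 7.29, 7.05 and 7.005 in restricted mice, against 5.74, 5.40 and 5.28 in control mice. It was 3.12-fold higher on the restricted diet, 1.64 ± 0.19 (adjusted p = 0.00143; with slide as a block 1.82, adjusted p = 0.00943).

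Gstz1, the maleylacetoacetate isomerase, had 6.77, 6.79 and 7.03 in restricted mice, against 5.64, 5.65 and 5.97 in control mice. Its difference was 1.11 ± 0.18 (adjusted p = 0.00500), and 1.02 with slide as a block (adjusted p = 0.0540). Hgd, which opens the ring of homogentisate, differed by 1.44 ± 0.38 (adjusted p = 0.0317), with the largest restricted SD among called members, 0.65. Fah, the last enzyme, was at the threshold, 0.83 ± 0.26 (adjusted p = 0.04997). Hgd and Fah lost the call with slide as a block (adjusted p = 0.0536 and 0.0819) and without restricted mouse 1, at 1.20 (adjusted p = 0.0846) for Hgd and 0.68 (adjusted p = 0.131) for Fah. Over the 6 fits without a mouse, Hgd kept its call in 2 and Fah in 1.

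All 4 tryptophan enzymes of the kynurenine route rose (group median 1.17, and 1.22 with slide as a block). Tdo2, the liver dioxygenase that opens the route, had 4.70, 4.66 and 4.12 in restricted mice, against 3.02, 2.32 and 2.76 in control mice. It was 3.47-fold higher on the restricted diet, 1.80 ± 0.26 (adjusted p = 0.00308; with slide as a block 2.00, adjusted p = 0.0178). Haao, which makes the precursor of quinolinate, had 6.58, 6.32 and 6.49 in restricted mice, against 4.75, 4.93 and 5.51 in control mice, a difference of 1.40 ± 0.23 (adjusted p = 0.00576). Neither gene overlapped between the diets.

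Kmo, kynurenine monooxygenase, had 5.44, 5.59 and 5.67 in restricted mice, against 4.29, 4.50 and 5.09 in control mice. Control mouse 3 was the highest of its diet. The difference was 0.94 ± 0.24 (adjusted p = 0.0263), with 0.90 ± 0.17 at a second probe (adjusted p = 0.00884 over all probes). Kynu, kynureninase, was 1.66-fold higher (0.73 ± 0.22, adjusted p = 0.0446), while its second probe gave 0.45 ± 0.25 (adjusted p = 0.233). With slide as a block Kmo and Kynu lost the call (adjusted p = 0.190 and 0.101). Each kept it in only 1 of the 6 fits without a mouse: Kmo without control mouse 3 and Kynu without restricted mouse 3.

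The 4 histidine enzymes act in sequence to glutamate, and all 4 rose by similar amounts, between 1.18 and 1.51 (median 1.23, and 1.21 with slide as a block). Hal, histidase, the entry enzyme, had 5.44, 5.89 and 5.51 in restricted mice, against 4.20, 4.17 and 4.92 in control mice, a difference of 1.18 ± 0.26 (adjusted p = 0.0156). Uroc1, urocanase, had 5.69, 5.43 and 5.33 in restricted mice, against 3.71, 3.83 and 4.37 in control mice, a difference of 1.51 ± 0.23 (adjusted p = 0.00369). Control mouse 3 had the highest value of its diet for all 4 enzymes, yet stayed below every restricted mouse. Ftcd, which passes the formimino group to folate, had 6.20, 5.95 and 6.16 in restricted mice, against 4.61, 4.76 and 5.32 in control mice (1.21 ± 0.23, adjusted p = 0.00921). Amdhd1, the enzyme between Uroc1 and Ftcd, differed by 1.25 ± 0.25 (adjusted p = 0.0103). Only Uroc1 kept its call with slide as a block (1.72, adjusted p = 0.0189), and Ftcd, Amdhd1 and Hal did not (adjusted p = 0.0536, 0.09675 and 0.137). Hal was also lost when restricted mouse 2 (1.05, adjusted p = 0.0593), control mouse 1 (1.07, adjusted p = 0.0557) or control mouse 2 (1.06, adjusted p = 0.0602) was left out.

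Among serine and glycine genes, 4 of 6 rose (median 0.84, and 1.04 with slide as a block). Agxt, which converts glyoxylate to glycine, had 7.61, 7.03 and 7.02 in restricted mice, against 5.78, 6.12 and 5.84 in control mice. It was 2.47-fold higher on the restricted diet, 1.31 ± 0.22 (adjusted p = 0.00617). Of the 4 proteins of the glycine cleavage system, the mitochondrial complex that splits glycine, the 3 that are members passed the test. The other, Dld, the dihydrolipoamide dehydrogenase it shares with the branched-chain ketoacid complex, overlapped between the diets and was not called (0.85 ± 0.43, adjusted p = 0.192). Its decarboxylase Gldc had 4.08, 3.71 and 3.68 in restricted mice, against 2.75, 2.95 and 2.33 in control mice, a difference of 1.15 ± 0.22 (adjusted p = 0.0101; with slide as a block 1.40, adjusted p = 0.0304). Amt, its aminomethyltransferase, differed by 0.81 ± 0.22 (adjusted p = 0.0317), and Gcsh, its lipoyl carrier, by 0.62 ± 0.17 (adjusted p = 0.0378). Amt was the dimmest of all members, with a mean relative log2 signal of -2.34 in restricted mice and -3.16 in control mice. Amt and Gcsh lost the call with slide as a block (adjusted p = 0.227 and 0.333). The other 2 Gcsh probes gave 0.70 and 0.63 and were not called (adjusted p = 0.0747 and 0.120 over all probes). Amt kept its call in 2 and Gcsh in 1 of the 6 fits without a mouse. Without restricted mouse 2 the values were 0.72 for Amt (adjusted p = 0.112) and 0.56 for Gcsh (adjusted p = 0.135).

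Sds, the serine dehydratase that turns serine into pyruvate, had 6.22, 5.47 and 5.19 in restricted mice, against 5.01, 4.53 and 4.73 in control mice. The diets did not overlap, but the difference of 0.87 ± 0.29 was not called (adjusted p = 0.0686). It was called with slide as a block, at 1.46 (adjusted p = 0.0227), and without restricted mouse 3, at 1.09 (adjusted p = 0.0482). Sdsl, a related dehydratase, had the difference nearest 0 of all members, -0.01 ± 0.23 (adjusted p = 0.987).

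All 3 proline enzymes rose (median 1.21, and 1.13 with slide as a block). Prodh, proline dehydrogenase, had 6.13, 5.58 and 5.92 in restricted mice, against 4.05, 3.90 and 4.64 in control mice. It was 3.20-fold higher on the restricted diet, 1.68 ± 0.26 (adjusted p = 0.00400; with slide as a block 1.94, adjusted p = 0.0182). Aldh4a1, which carries the product on to glutamate, had 5.52, 5.59 and 5.66 in restricted mice, against 4.41, 4.36 and 4.39 in control mice. Both groups were tight, and the difference was 1.21 ± 0.15 (adjusted p = 0.00186). Prodh2, which oxidises hydroxyproline, differed by 0.97 ± 0.22 (adjusted p = 0.0175), but 0.80 with slide as a block was not called (adjusted p = 0.157). It kept the call in 2 of the 6 fits without a mouse and had 0.84 without control mouse 1 (adjusted p = 0.05995).

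Of the 9 branched-chain genes, 8 rose (median 1.46, and 1.63 with slide as a block). The diets did not overlap for any of the 9. Bckdha, a subunit of the decarboxylase of the branched-chain ketoacid dehydrogenase that commits the 3 amino acids to oxidation, had 5.77, 5.41 and 5.63 in restricted mice, against 3.99, 4.07 and 4.38 in control mice (1.46 ± 0.19, adjusted p = 0.00216). Dbt, the transacylase core of the same complex, differed by 1.45 ± 0.24 (adjusted p = 0.00534). Bckdhb, the other decarboxylase subunit, had the smallest difference of the group, 0.53 ± 0.17, and missed the threshold (adjusted p = 0.0527).

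Further down, Hibch and Hibadh of the valine branch had the largest differences of the group. Hibch, which removes coenzyme A from 3-hydroxyisobutyryl-CoA (probe at chr1:52977535-52977594, mm9), had 4.11, 4.20 and 4.04 in restricted mice, against 2.17, 2.19 and 2.14 in control mice. The restricted mice spanned 0.15 and the control mice 0.05, and the diets differed by 1.95 ± 0.15, or 3.87-fold (adjusted p = 0.000407; with slide as a block 1.94, adjusted p = 0.00448). Hibadh, the following dehydrogenase, had 5.92, 5.75 and 5.85 in restricted mice, against 4.13, 4.26 and 4.41 in control mice (1.58 ± 0.16, adjusted p = 0.000939). Aldh6a1, which yields propionyl-CoA, differed by 1.52 ± 0.18 (adjusted p = 0.00153). On the leucine branch, Ivd, the isovaleryl-CoA dehydrogenase, differed by 1.09 ± 0.19 (adjusted p = 0.00623). The carboxylase subunits Mccc1 and Mccc2 differed by 1.52 ± 0.16 and 1.06 ± 0.16 (adjusted p = 0.00102 and 0.00372). All 8 called members of the group kept the call with slide as a block and in each of the 6 fits without a mouse.

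All 3 lysine enzymes rose (median 1.32, and 1.79 with slide as a block). Aass, the bifunctional enzyme that opens the saccharopine route, had 7.27, 6.64 and 6.45 in restricted mice, against 5.44, 5.65 and 5.30 in control mice (1.32 ± 0.25, adjusted p = 0.00907). Aldh7a1, which oxidises the semialdehyde made next, had 6.77, 6.74 and 6.89 in restricted mice, against 4.77, 4.97 and 5.20 in control mice. It was 3.53-fold higher on the restricted diet, 1.82 ± 0.18 (adjusted p = 0.000771), and its second probe gave 1.61 ± 0.22. Gcdh, glutaryl-CoA dehydrogenase, had 4.51, 4.51 and 4.56 in restricted mice, against 3.15, 3.31 and 3.46 in control mice, with the smallest restricted SD of all called members, 0.03 (1.22 ± 0.16, adjusted p = 0.00236).

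The methionine and one-carbon genes divided, 4 of 8 rising (median 1.05, and 1.37 with slide as a block). The members that rose were Sardh, Dmgdh, Gnmt and Ahcy. Sardh, which strips the methyl group from sarcosine in mitochondria (probe at chr2:27047412-27047471, mm9), had 5.47, 5.35 and 5.34 in restricted mice, against 3.49, 3.32 and 3.46 in control mice. The difference was 1.96 ± 0.16, or 3.90-fold (adjusted p = 0.000441; with slide as a block 2.05, adjusted p = 0.00400). Dmgdh, which acts just before it on dimethylglycine, differed by 1.10 ± 0.21 (adjusted p = 0.00937). Ahcy, which hydrolyses S-adenosylhomocysteine, had 6.32, 6.27 and 6.50 in restricted mice, against 4.92, 4.73 and 5.11 in control mice (1.45 ± 0.18, adjusted p = 0.00166), and its other 2 probes gave 1.29 and 1.41.

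Gnmt, which uses S-adenosylmethionine to methylate glycine to sarcosine, had 7.01, 6.97 and 6.72 in restricted mice, against 5.87, 5.42 and 4.34 in control mice. Control mouse 3 was the lowest, and the control SD of 0.79 was the largest among called members. The difference was 1.69 ± 0.38, or 3.23-fold (adjusted p = 0.0170), and the call was lost with slide as a block (1.80, adjusted p = 0.0882) and without restricted mouse 2 (1.66, adjusted p = 0.0558).

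The enzymes that make S-adenosylmethionine and carry homocysteine on to cysteine were not called. Mat1a, the liver S-adenosylmethionine synthetase, had 6.86, 6.40 and 5.77 in restricted mice, against 6.33, 5.80 and 5.87 in control mice, overlapping (0.34 ± 0.31, adjusted p = 0.443). Cbs, which joins homocysteine to serine, had 6.71, 6.34 and 6.18 in restricted mice, against 6.24, 6.45 and 6.33 in control mice (0.07 ± 0.19, adjusted p = 0.814). Cth, which then releases cysteine, had 6.00, 5.20 and 4.92 in restricted mice, against 4.98, 4.18 and 3.91 in control mice. Restricted mouse 3 was just below control mouse 1, and the difference of 1.01 ± 0.37 was not called (adjusted p = 0.0871); its second probe gave 1.15 ± 0.39 (adjusted p = 0.0709 over all probes).

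Bhmt, which remethylates homocysteine from betaine, was saturated on all 6 arrays at 2 of its 3 probes, so these give no fold. The brightest read 7.52, 7.34 and 7.90 in restricted mice, against 6.87, 7.21 and 7.59 in control mice. Its unsaturated probe had 7.22, 6.43 and 6.79 in restricted mice, against 6.37, 5.76 and 6.14 in control mice. The diets did not overlap there, but the difference of 0.72 ± 0.26 was not called (adjusted p = 0.0851 over all probes).

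Members differed in how closely mice of a diet matched. Called members had a median SD of 0.17 on the restricted diet and 0.21 on the control diet, and the 15 not called had 0.54 and 0.32. The call itself depends on this spread, so a smaller SD among called members is built into the split. Restricted mouse 1 was the highest of its diet for 37 of the 54 members, and for 12 of the 15 not called, where it stood a median of 0.59 above the diet mean. Restricted mouse 3 was the lowest for 29. Restricted mouse 1 is also the only restricted mouse on slide 1, and whether mouse or slide goes with its higher values was not tested. The array annotation labels 21 members as nuclear genes encoding mitochondrial proteins, and 17 of these were higher (median 1.22). Of the 33 without that label, 22 were higher (median 1.02). The label is incomplete, because the mitochondrial Gpt2, Gldc and Gcsh lack it. The groups therefore do not separate mitochondrial enzymes from others.

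**Figure D4:**
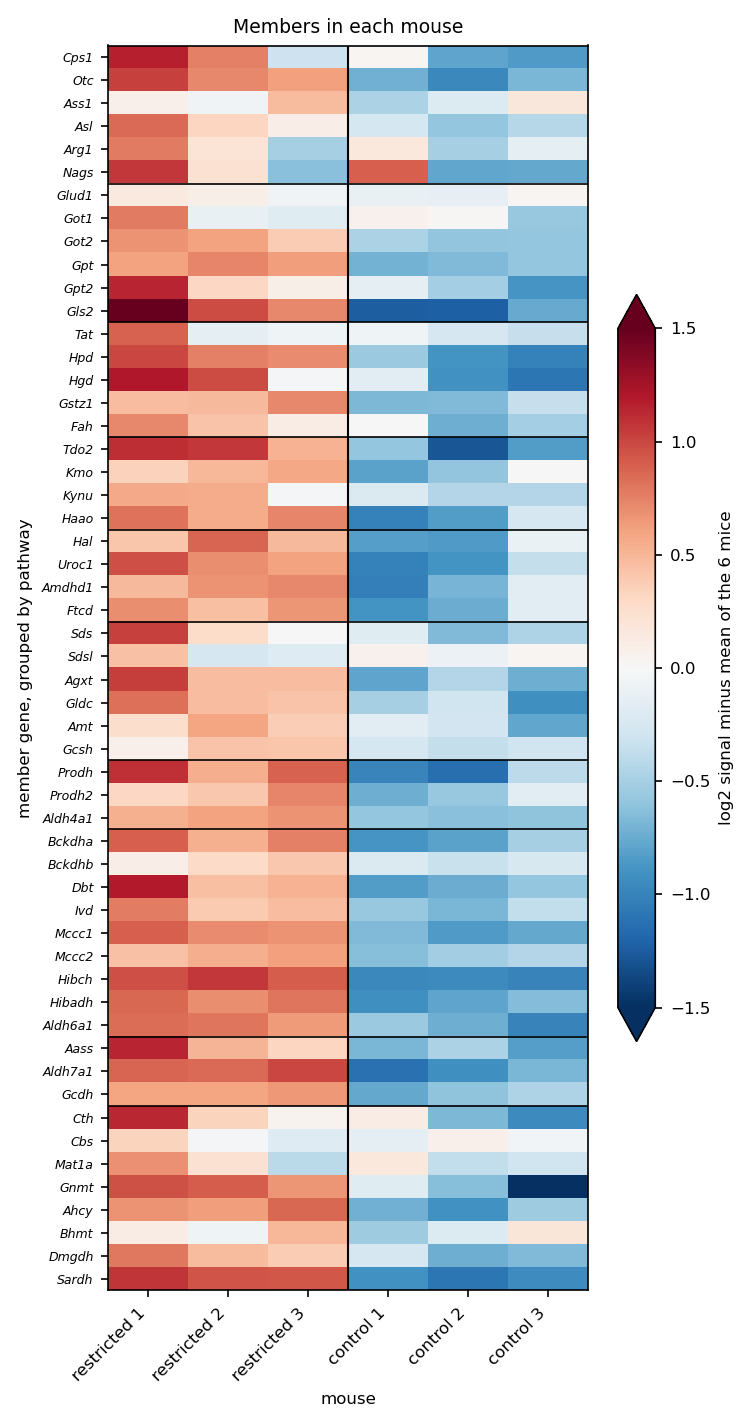
Each member (rows, grouped by pathway) in each mouse (columns, restricted left of control), as log2 signal minus the mean of the 6 mice; red is above and blue below that mean, and the colour scale ends at 1.5. Restricted mouse 1 has the highest value of its diet in 37 of 54 rows, and a few rows, such as Glud1, Cbs and Sdsl, are pale throughout.

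**Figure D5:**
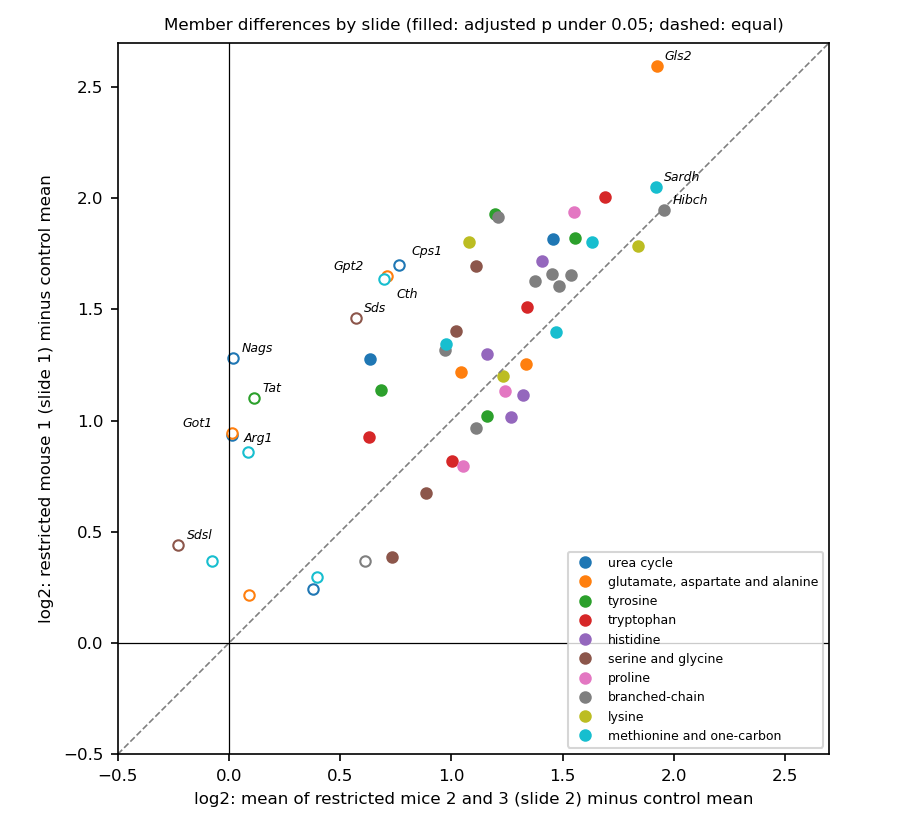
Difference from the control mean, on the log2 scale, of restricted mouse 1 on slide 1 (y axis) against the mean of restricted mice 2 and 3 on slide 2 (x axis) for the 54 members, coloured by pathway; filled points were called and the dashed line marks equal values. Nags, Arg1, Got1 and Tat lie near 0 on the x axis and near 1 or above on the y axis. All 39 filled points lie right of 0, which follows from the diets not overlapping for any called member.

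Windows of 300 bases around the transcription start, from 250 bases before to 50 after (RefSeq, GRCm38.p6), were matched for 42 of the 54 members, and were searched on both strands for 10 motifs. The pentamer CCAAT was in 24 of the 42 (57.1%, against 41.1% of all 27025 genes with a window). The motif TATAAA was in 5 (11.9% against 15.7%): Ftcd, Got2, Hal, Hgd and Tdo2. The C/EBP motif TTGCNNAA was in 5 (11.9% against 12.2%): Aass, Gcdh, Hal, Hgd and Prodh2. All 5 were called higher, as were the 5 with TATAAA and 33 of the 42 members with a window. The short cAMP motif TGACG was in 4 (9.52% against 23.0%), and the E-box CACGTG was in 3 (7.14% against 8.09%). The HNF1 consensus motif was in 1, Prodh2, against 0.074% of all genes. No member window held the cAMP element TGACGTCA (2.03% of all genes), which contains the short motif, the motif CAAAGTCCA for HNF4 (0.555%), or the DR1 (0.048%) and glucocorticoid receptor (1.54%) consensus motifs. These matches describe letters in a window and not binding.

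A set of 3 of these windows, from members that rose, is shown as examples of the C/EBP and HNF1 motifs of liver-enriched factors. The C/EBP motif was no more frequent in members than in all genes (11.9% against 12.2%), and 1 member held the HNF1 motif. Whether either motif goes with the rise was not tested. Hgd at chr16:37579903-37580202 and Hal at chr10:93488518-93488817, both on the plus strand, have C/EBP matches in capitals. Prodh2 at chr7:30493408-30493707, also on the plus strand, has the HNF1 match in capitals.
Hgd: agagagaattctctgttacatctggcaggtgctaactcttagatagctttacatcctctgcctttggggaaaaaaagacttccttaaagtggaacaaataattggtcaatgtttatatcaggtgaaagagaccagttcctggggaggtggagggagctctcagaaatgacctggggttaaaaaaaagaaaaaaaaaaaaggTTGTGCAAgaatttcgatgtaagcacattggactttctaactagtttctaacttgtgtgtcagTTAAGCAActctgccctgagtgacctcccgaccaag
Hal: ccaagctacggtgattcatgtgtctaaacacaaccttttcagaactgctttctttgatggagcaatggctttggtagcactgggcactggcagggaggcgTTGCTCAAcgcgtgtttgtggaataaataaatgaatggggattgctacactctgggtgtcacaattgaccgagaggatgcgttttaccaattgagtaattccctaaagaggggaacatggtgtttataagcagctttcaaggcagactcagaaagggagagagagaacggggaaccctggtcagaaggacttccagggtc
Prodh2: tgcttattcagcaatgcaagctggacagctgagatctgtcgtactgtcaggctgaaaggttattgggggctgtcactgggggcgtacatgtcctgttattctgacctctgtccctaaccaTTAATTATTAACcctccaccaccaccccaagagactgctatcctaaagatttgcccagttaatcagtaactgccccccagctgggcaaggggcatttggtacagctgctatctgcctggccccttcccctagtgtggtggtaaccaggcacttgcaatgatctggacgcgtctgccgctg

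Other genes of the same pathways, from lists drawn up beside the members with earlier results of these data known, were measured for 76 of 82. Of these, 42 were higher and 8 lower on the restricted diet, with a median of 0.89, and 0.96 with slide as a block, where 24 were called higher. In the fit without slide, 14.6% of all features were called higher and 12.8% lower. All 5 other phenylalanine and tyrosine genes rose (median 1.58). Qdpr and Pcbd1, which recycle tetrahydrobiopterin, differed by 1.87 and 1.21 (adjusted p = 0.00102 and 0.00312), and Mif by 1.27 (adjusted p = 0.00189). Gch1 (1.58) begins synthesis of tetrahydrobiopterin.

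All 7 other tryptophan genes measured rose (median 1.46). Afmid, the formamidase after Tdo2, had 2.15, 2.38 and 2.50 in restricted mice, against -0.52, -0.28 and -0.34 in control mice, a difference of 2.73 ± 0.18 (adjusted p = 0.000332). Aadat, an aminotransferase of kynurenine and of the lysine product aminoadipate, was not well above background in any control mouse and was at least 3.355-fold higher on the restricted diet (adjusted p = 0.00214). Ido2 and Kyat1 differed by 1.46 and 1.40 (adjusted p = 0.002374 and 0.005805).

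Of 15 other branched-chain and propionate genes, 11 rose and 0 fell (median 1.10). Hsd17b10 of isoleucine breakdown differed by 1.39, Auh of leucine breakdown by 1.28, Mcee of the propionate route by 1.24 and Ppm1k, the phosphatase that activates the ketoacid dehydrogenase, by 1.52 (largest adjusted p of the 4, 0.00381). Bckdk, the kinase that inactivates the same complex, had -0.52, -0.24 and -0.35 in restricted mice, against -0.95, -0.92 and -0.33 in control mice, overlapping (0.36 ± 0.22, adjusted p = 0.275). Bcat2, the transaminase of the first step, also overlapped (0.37 ± 0.42, adjusted p = 0.547). Of 6 other lysine genes, 4 rose: Aadat, Hadh (1.13), Pipox (1.03) and Echs1 (0.90).

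The remaining lists went in both directions. Among 13 other serine, glycine, threonine and glyoxylate genes, 7 rose and 2 fell. The threonine enzymes Thnsl2 and Gcat differed by 1.80 and 1.60 (adjusted p = 0.000558 and 0.000685). Shmt1, the cytosolic serine hydroxymethyltransferase, differed by 1.65 (adjusted p = 0.00248), and Hao1, which makes glyoxylate, by 1.27 (adjusted p = 0.00635). The 2 that fell were Psat1 and Phgdh, enzymes of serine synthesis, by 1.59 and 1.11 (adjusted p = 0.0139 and 0.0204). Among 21 methionine, sulfur and methyl-group genes, 7 rose and 3 fell. The sulfide and sulfite oxidising enzymes Ethe1 and Suox differed by 2.099 and 1.53 (adjusted p = 0.000601 and 0.00112), and the folate enzyme Mthfd1 by 1.36 (adjusted p = 0.00437). Mtr, methionine synthase, fell by 0.94 (adjusted p = 0.00608), as did Gatm, which begins creatine synthesis, by 1.89 (adjusted p = 0.0140).

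Other urea and ammonia genes had a median of -0.25, with 3 of 11 higher and 3 lower. Aldh18a1, which makes proline and ornithine precursors from glutamate, was not well above background in any restricted mouse and was at least 4.88-fold lower on the restricted diet (adjusted p = 0.001175). Pycr1, the last enzyme of proline synthesis, fell by 0.88 (adjusted p = 0.0441). Slc25a13, the mitochondrial aspartate carrier, Agmat and Oat, ornithine aminotransferase, rose by 1.13, 1.07 and 0.85 (adjusted p = 0.0150, 0.00530 and 0.0310). Glul, glutamine synthetase, had 5.74, 5.71 and 6.10 in restricted mice, against 5.83, 6.24 and 6.22 in control mice (-0.25 ± 0.20, adjusted p = 0.404).

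Of 14 amino acid carriers, 3 rose and 2 fell, where 14.6% of all features were called higher and 12.8% lower. Slc38a4 and Slc38a3, liver carriers of small neutral amino acids and of glutamine, differed by 1.14 each (adjusted p = 0.003415 and 0.006255), and the third was Slc7a5 (0.51, adjusted p = 0.0489). Slc43a2 and Slc7a8, carriers of large neutral amino acids, fell by 1.87 and 2.55 (adjusted p = 0.000818 and 0.00163). Of 25 regulators known to act on these pathways, 4 rose and 1 fell. The number that rose was near the 14.6% of all features called higher, so it is no result about regulators as a group. Sirt5, a mitochondrial deacylase known to act on Cps1, had 1.93, 1.90 and 2.03 in restricted mice, against 0.33, 0.49 and 0.59 in control mice (1.48 ± 0.16, adjusted p = 0.00108). Ppara, the fasting-activated nuclear receptor, had 5.44, 5.53 and 5.68 in restricted mice, against 3.70, 3.50 and 4.49 in control mice (1.65 ± 0.28, adjusted p = 0.00558).

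Cebpa, a liver-enriched transcription factor, differed by 1.60 ± 0.26 (adjusted p = 0.00511), the mitochondrial deacetylase Sirt3 by 1.36 (adjusted p = 0.00887), and the oestrogen receptor Esr1 fell by 1.67 (adjusted p = 0.00577). Gcgr, the glucagon receptor, had 5.71, 6.10 and 6.43 in restricted mice, against 5.05, 5.35 and 5.67 in control mice, and Klf15, a factor of amino acid breakdown, had 2.56, 2.46 and 3.21 in restricted mice, against 1.52, 1.57 and 2.45 in control mice. Gcgr and Klf15 were not called (0.72 and 0.90, adjusted p = 0.0771 and 0.0821). None of the 5 measured gluconeogenesis genes was called by limma. For 4 of them every restricted mouse lay above every control mouse, as for 26.1% of all features. The 2 with the smallest p were Pck1 (0.72, adjusted p = 0.0523, saturated in 2 of 3 restricted mice) and Slc37a4 (0.62, adjusted p = 0.0919). Of the 5, 2 were saturated on at least 1 array, which limits what their differences show.

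The tissue label was checked against marker lists. All 16 measured hepatocyte markers were well above background, but 14 of them were saturated on at least 1 array, so they do not measure hepatocyte content here. Of the 16, 1 was higher and 0 lower, that one being Cyp2f2, which also marks periportal cells (2.71 ± 0.19, adjusted p = 0.000335; saturated in 2 of 3 restricted mice). Of 8 periportal markers outside the members, Cyp2f2 alone was called. Of 12 pericentral markers 5 were higher, namely Rhbg (1.63), Rgn (1.03), Cyp1a2 (1.09), Cyp7a1 (4.06 ± 0.94) and Oat, and 1 lower, Lect2, which fell by 1.11. Cyp7a1 varied widely among control mice, at -1.30, -4.07 and 0.10, against 2.61, 2.22 and 2.08 in restricted mice.

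Markers of several other cell types were lower on the restricted diet, while most of the sinusoidal endothelial markers that were called were higher. Of 22 macrophage and Kupffer cell markers, 21 were lower on the restricted diet and Itgam was not called, Fcer1g, Tyrobp, Marco and Ptprc having the smallest p. Their summed signal, in units of each array's 75th percentile, was 74.95 to 103.9 in restricted mice, against 336.7 to 431.3 in control mice. All 7 MHC class II genes were lower, with sums of 9.79 to 21.7 in restricted mice and 140.6 to 238.7 in control mice; H2-DMb1, H2-DMa, H2-Aa and H2-Ab1 had the smallest p. Of 10 neutrophil markers 6 were lower (Ltf, Camp, Mpo and Ngp first) and 1 higher, Elane (0.67), with sums of 91.9 to 134.9 in restricted mice and 151.8 to 185.7 in control mice. The median difference of the 10 was -3.73, but -1.29 with slide as a block, which rests on restricted mouse 1.

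Of 10 lymphocyte markers 4 were lower (Klrd1, Cd2, Cd3d and Cd3g), but the sums overlapped, with 27.8 to 39.2 in restricted mice and 31.6 to 49.3 in control mice. Of 12 stellate and fibroblast markers 8 were lower (Timp1, Col3a1, Pdgfra and Lum first), with sums of 46.7 to 76.4 in restricted mice and 116 to 151.3 in control mice. Of 6 bile duct markers 3 were lower (Spp1, Epcam and Krt7), with sums of 0.852 to 1.82 in restricted mice and 4.45 to 5.42 in control mice. Of 14 cell division genes 13 were lower (Bub1, Ccna2, Cdkn3 and Bub1b first), with sums of 4.28 to 5.96 in restricted mice and 11.3 to 16.1 in control mice. Of 11 sinusoidal endothelial markers 5 were higher, namely Oit3, Clec4g, Flt4, Lyve1 and Tek, and 1 lower, Fcgr2b. Sums of the 11 overlapped slightly, with 43.3 to 57.6 in restricted mice and 29.9 to 43.6 in control mice. Every measured marker of these lists was well above background on at least 1 array. The part of these cell types in the member differences was not tested.

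Across the 6 arrays the 75th percentile of signal ran from 287.4 to 573.6 and the number of probes well above background from 23527 to 25816. Arrays of the same diet correlated at 0.976 to 0.988 over all features, and arrays of different diets at 0.925 to 0.947, so no array stood apart from its diet. With 3 mice per diet, the number of arrays limits the precision.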

How the data were processed

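Gene expression was measured in liver outside the tumours of 6 mice, with 1 single-colour Agilent array (design 026655, probe coordinates on mm9) per mouse. The deposited intensity values are processed signals made, per the file headers, with Agilent Feature Extraction 10.7.3.1, and version 9.3.2.1 is named in the submitters' processing notes. The deposited table of values gives the same intensity on a linear scale, within 0.1% for 99.80% to 99.87% of probes, with column medians of 27.52 to 52.12, so it is not centred.

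Outlier spots were left out (127 to 251 per array). Log2 signals were averaged per probe, and each array's 75th percentile was subtracted. A probe was kept if every array of either diet that measured it had it well above background (24234 probes), and the probe of highest mean signal per gene name gave 19616 features, some named through RefSeq accessions (26055 probes matched, 3358 names changed). Diets were compared with limma (3.58.1, R 4.3.3) and Benjamini-Hochberg adjustment over all features, and values marked "over all probes" come from the same fit on all probes kept. A fold is 2 to the power of the log2 difference. The fold is a lower bound for probes dim on all arrays of a diet, or saturated there. On each array of the dimmer diet, a floor at the weakest signal still well above background then replaces lower signals. No fold is given where both diets were saturated.

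Members and gene lists were chosen with earlier results of these data known, and the genes given per mouse were set by role and by the smallest p of each pathway. Of each other list up to 4 called genes with the smallest p are named. Gch1, Psat1, Phgdh, Gatm, Pycr1, Slc7a5, Cyp7a1, Elane, Lyve1, Tek, Dld and Itgam fall outside that rule and were chosen after their values were seen. A few genes of these lists are not reported here. The limma script was tested on simulated data. Alternatives tried were normexp background correction (offset 50), quantile normalization, median scaling, the deposited table, 2 other background filters, trend and robust moderation, array weights, blocks by mouse number or slide, a fit on slide 1, fits without each mouse in turn, and other probes. The slide and the scan held the same arrays.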

Additional observations from a re-analysis of the deposited data

How the results depend on the processing

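No member was called lower under any alternative run. Members called higher were 39 in the reported fit, 37 with normexp, 31 with quantile normalization, 40 with median scaling, 39 with the deposited table, 33 with no background filter, 41 with trend and robust moderation, 43 with array weights, 30 with slide as a block and 22 on slide 1 alone. Leaving out 1 mouse gave 29 to 37, and 29 of the 39 kept the call in all 6 of those fits. Quantile normalization, which forces the arrays to 1 distribution, lowered the medians to 0.89 over all members, 0.76 for glutamate, aspartate and alanine, 0.80 for tyrosine, 0.86 for tryptophan, 0.73 for serine and glycine, 0.88 for proline, 1.21 for the branched-chain genes and 1.01 for lysine. The serine and glycine median was also 0.67 with normexp and 0.93 with median scaling. With slide as a block, and equally on slide 1 alone, medians were 1.31 over all members, 1.28 for the urea cycle, 1.04 for serine and glycine, 1.63 for branched-chain, 1.79 for lysine and 1.37 for methionine and one-carbon genes. Leaving out 1 mouse gave medians of 0.51 to 0.96 for the urea cycle, 0.88 to 1.21 for glutamate, aspartate and alanine, 1.02 to 1.40 for tryptophan and 0.74 to 0.97 for serine and glycine. Of the other pathway genes, 24 were higher with slide as a block and 18 on slide 1 alone, where 5 were lower; without control mouse 2, 4 were lower, and the fits without a mouse ranged from 4 to 8. Without a mouse, 28 to 40 of them were higher.

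Signs turned only for members that were not called. Under quantile normalization these were Arg1 (-1e-04), Glud1 (-0.20), Got1 (-0.021) and Cbs (-0.24). Leaving out 1 mouse gave Cbs -0.076 (restricted mouse 1) to 0.19 (restricted mouse 3), and Glud1 had -0.12 at its other probe. Sdsl, at -0.01 in the reported fit, had 0.085 with median scaling and 0.44 with slide as a block and on slide 1 alone. Leaving out 1 mouse gave Sdsl -0.23 (restricted mouse 1) to 0.12 (restricted mouse 2), also above 0 without restricted mouse 3, control mouse 1 or control mouse 3. The cause of these shifts was not tested.

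The mouse numbers were not shown to pair animals across diets. Deviations from the diet means correlated at 0.38, -0.002 and 0.48 for mice 1, 2 and 3, and restricted mouse 2 correlated best with control mouse 1, at 0.08. With mouse number as a replicate block, 43 members were higher, 0 lower, and 33.763% of all features were called. Saturation limits Ass1 and Bhmt, and the single restricted mouse on slide 1 limits every value with slide as a block.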
